A study of Mus musculus with 2 samples.

Results

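Icam1, Icam2, Vcam1, Pecam1, Jam2, F11r, Esam, Alcam and Cd47 are genes for surface molecules with which endothelium holds leukocytes and lets them pass. They were taken by symbol, and all 9 were found once among the 32285 gene rows of both libraries. Endothelium had been sorted from the lymph nodes of tamoxifen-treated mice, both WT and Xbp1-KO, and run in 2 droplet libraries. Each library held 4 hashtagged pools, the peripheral and the mesenteric nodes of WT and of Xbp1-KO mice, so every group had n = 2 pools, 1 per library. Tamoxifen was thus shared by all groups. The labels do not give the Cre line or the cells in which Xbp1 was deleted, the part of the gene removed, the number of animals per pool, or their age and sex. The labels do not say how many animals the libraries came from. Within each genotype the shares of cells with Xist, given further on, were opposite in the 2 libraries, so these held different animals. In the fits by genotype and by tissue, p-values measure the spread between the 2 pools of each group. Where such a fit leaves out 1 library, each group has 1 pool and this spread cannot be measured. Comparisons of classes and of subsets had the pool as a block. Their p-values measure how far a difference varied from pool to pool, over both tissues and genotypes.

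A leukocyte that rolls on the vessel wall stops when its integrins bind immunoglobulin-like ligands on the endothelium. ICAM1 and ICAM2 are ligands of the integrin LFA-1, and VCAM1 is the ligand of the integrin VLA-4. The cell then crosses at or near the junctions, which are built in part from PECAM1, JAM-B (Jam2), JAM-A (F11r) and ESAM. ALCAM binds CD6 on T cells, and CD47 is the ligand of SIRP alpha, a receptor that restrains phagocytes. In lymph nodes lymphocytes enter through high endothelial venules and leave through lymphatic sinuses, so both kinds of endothelium carry such molecules.

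In all, 9275 cells were used, 6648 from library 1 and 2627 from library 2, whose barcodes held a median of 3655 and 4319 unique molecular identifiers (UMIs, tags of single captured RNA molecules). The libraries shared 3 barcodes. Clustering, from which the members had been withheld, gave 14 endothelial subsets, 8 of blood vessels and 6 lymphatic. The high endothelial-like subset was led by Ccl21a, Glycam1, Serpina1e, Ubd and Fut7 and held 367 cells. The other named blood subsets held 3876 cells and the lymphatic subsets 3728. Of leukocyte markers, Ptprc and Cd3e were at 0 UMIs in both blood classes, and in lymphatic cells Ptprc had 2 UMIs and Cd3e 0. Of mural or fibroblastic markers, Pdgfrb, Col1a1, Col3a1 and Acta2 were at 0 in high endothelial-like cells, while Rgs5 reached 115 CPM (counts per 1000000 UMIs) in lymphatic cells. Summed, the 7 leukocyte markers came to 0 to 74.6 CPM in high endothelial-like, 1.26 to 6.50 in other blood and 16.3 to 44.6 in lymphatic sums. The 10 mural or fibroblastic markers came to 0 to 22.9, 15.2 to 23.7 and 93.9 to 269.6 CPM, and their part in the results was not tested. Xbp1 was lower in Xbp1-KO than in WT in 4 of 4 pairs of pools in each class. Its log2 fold change was -1.03 ± 0.16 (SE) in lymphatic, -0.82 ± 0.15 in other blood and -0.61 ± 0.38 in high endothelial-like cells, with edgeR adjusted p of 0.18, 0.357 and 1.0. In high endothelial-like cells the ratio of Xbp1-KO to WT was 0.967 in peripheral and 0.457 in mesenteric nodes of library 1 and 0.807 in mesenteric nodes of library 2, so the Xbp1-KO cells held Xbp1 transcript. The Xbp1-KO peripheral sum of library 2, of 2 cells, held none. In lymphatic cells the ratio was 0.387 to 0.503 in 3 pairs and 0.921 in mesenteric nodes of library 2, at 51.9 against 56.4 CPM. With the library as a block the adjusted p was 0.00107 in lymphatic and 0.00206 in other blood cells. In library 1, 73.1% to 82.5% of Xbp1-KO cells and 1.29% to 1.77% of WT cells held Xist, the transcript of the inactive X chromosome, and in library 2 0.114% to 0.608% and 76.8% to 85.4%. Within a library, genotype and Xist status therefore cannot be told apart.

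The start-site sequence of 4 members could be read from RefSeq (GRCm38.p6), and 3 are shown because Icam1, Cd47 and Alcam carry the differences between genotypes, lymphatic subsets and tissues described further on. Each runs from 250 bases before to 50 bases after the gene's start, on the gene's strand. The starts are those of RefSeq and differ from the outer ends of the GENCODE genes given further on, which for Cd47 begins far upstream, at 49800533, and for Alcam, on the minus strand, at 52454074. Capitals mark matches, on either strand, to 3 searched motifs: the kappa B form (GGG, 5 bases of any kind, CC), the ETS core CGGAAG and the core of the XBP1 element, GACGTG.
Icam1, chr9:21015690-21015989, plus strand: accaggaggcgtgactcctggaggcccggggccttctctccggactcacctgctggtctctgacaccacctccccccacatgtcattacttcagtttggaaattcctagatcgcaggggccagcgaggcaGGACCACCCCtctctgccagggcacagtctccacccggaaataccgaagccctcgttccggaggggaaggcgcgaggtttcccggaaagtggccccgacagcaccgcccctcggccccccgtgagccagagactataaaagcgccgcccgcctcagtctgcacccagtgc
Cd47, chr16:49855404-49855703, plus strand: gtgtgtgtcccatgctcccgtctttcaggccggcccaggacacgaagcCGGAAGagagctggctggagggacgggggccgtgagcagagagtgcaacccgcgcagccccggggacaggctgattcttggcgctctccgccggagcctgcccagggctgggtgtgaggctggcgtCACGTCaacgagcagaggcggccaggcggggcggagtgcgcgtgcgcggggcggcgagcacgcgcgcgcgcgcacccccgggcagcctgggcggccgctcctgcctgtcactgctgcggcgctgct
Alcam, chr16:52453032-52453331, minus strand: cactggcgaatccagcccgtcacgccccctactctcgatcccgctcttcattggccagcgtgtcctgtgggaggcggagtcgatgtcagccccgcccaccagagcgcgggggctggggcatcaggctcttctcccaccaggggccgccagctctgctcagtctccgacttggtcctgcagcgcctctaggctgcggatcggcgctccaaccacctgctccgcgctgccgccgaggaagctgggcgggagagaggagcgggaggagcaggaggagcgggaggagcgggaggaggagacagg
The Icam1 window held 1 match to the searched kappa B form, on the minus strand 120 bases before the start. Kappa B sequences that depart from this form were not searched for and are not marked. The Cd47 window held the ETS core 202 bases before the start and, on the minus strand, the XBP1 core 76 bases before it. A second RefSeq entry of Cd47 starts 7 bases downstream and holds the same matches. The Alcam window held none of the 3, and that of F11r held 5 kappa B matches, of which the pair 55 and 54 bases before the start overlap. Among 32851 promoter windows of this length, 50.8% held the kappa B form, 16.9% the ETS core and 6.38% the XBP1 core. A match is a description of the letters, not a bound site.

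Across the 14 endothelial subsets 4 of the 9 members separated the lineages. Pecam1, Esam and Jam2 had every blood subset above every lymphatic subset, and Alcam had every lymphatic subset above every blood subset. Icam1, Icam2, Vcam1, F11r and Cd47 overlapped between the lineages. Levels are given as CPM, the UMIs of a gene per 1000000 UMIs of all genes in a pool's cells of that subset, as mean ± SD over pools with at least 10 cells. In bulk sums of this kind, fewer expressing cells and fewer transcripts per cell cannot be told apart. Neighbours in an order are said to differ where the mean paired difference between them exceeded its SD over pools.

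Icam1 (ENSMUSG00000037405, chromosome 9, 21015985 to 21028817) was high in venous-like cells, at 443 ± 110.2 CPM (n = 5), in high endothelial-like cells, at 369.5 ± 193 CPM (n = 5), and in tip-like cells, at 314 ± 117 CPM (n = 8). Among high endothelial-like pools with at least 10 cells it stood at 242, 243 and 329 CPM in library 1 (mesenteric WT, peripheral Xbp1-KO and mesenteric Xbp1-KO) and at 326 and 707 CPM in library 2 (mesenteric WT and Xbp1-KO). The Xbp1-KO mesenteric pool of library 2 stood apart from the other 4. Its 14 dissociation-response genes summed to 20964 CPM against 6596 to 11227 CPM in the other 4, and its 18 genes inducible by the inflammatory factor NF-kB to 4455 against 1618 to 1827 CPM; their part in this value was not tested. Fabp4 capillary-like cells were at the bottom, at 57.8 ± 37.3 CPM (n = 8). No 2 neighbours in the Icam1 order differed beyond their spread.

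Icam2 (ENSMUSG00000001029, chromosome 11, 106377656 to 106388075), which is constitutive on resting endothelium, led in arterial-like cells at 415 ± 64.1 CPM (n = 8), ahead of Fabp4 capillary-like cells at 318 ± 61.9 CPM, in 8 of 8 pools. Both steps, from arterial-like to Fabp4 and from Fabp4 to tip-like cells, exceeded the spread. High endothelial-like cells, at 176 ± 29.3 CPM, and the unnamed lymphatic subset led by Postn and C1ql3, at 129 ± 22.3 CPM (n = 6), were near the low end. The Icam1 and Icam2 orders were unlike each other, with Pearson's r of -0.53 between their mean log2 levels over the 14 subsets, which share libraries.

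Vcam1 (ENSMUSG00000027962, chromosome 3, 116109949 to 116129688) was above all a lymphatic transcript. Cells like those of the sinus floor had 1199 ± 259 CPM (n = 8) and the unnamed lymphatic subset 1104 ± 208 CPM (n = 6), and the step down to Marco lymphatic-like cells, at 500.04 ± 154 CPM (n = 7), exceeded the spread. Floor cells ranged from 749.7 CPM in the WT mesenteric pool of library 2 to 1502 CPM in the Xbp1-KO peripheral pool of library 1. Venous-like cells led the blood subsets at 239.8 ± 151 CPM (n = 5), a mean raised by 505.8 CPM in the Xbp1-KO peripheral pool of library 1 against 144 to 212 CPM in the other 4 pools. High endothelial-like cells had 102 ± 17.6 CPM and Fabp4 capillary-like cells 9.31 ± 12.8 CPM. After cells with fewer than 1500 UMIs had been left out and each other cell thinned to 1500, 68.6% of floor cells carried a Vcam1 UMI, against 23.9% of venous-like, 12.3% of high endothelial-like and 1.17% of Fabp4 capillary-like cells. The unthinned shares were 90.2%, 43.7%, 46.6% and 1.85%, at median depths of 5328, 4640, 8618 and 1839 UMIs. The thinned shares left out 2 of 553 floor and 143 of 486 Fabp4 capillary-like cells and none of the other 2 subsets, so the Fabp4 share covers the deeper cells of its subset.

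Of the junctional members, Pecam1 (ENSMUSG00000020717, chromosome 11, 106654217 to 106750628) was present throughout, from 2065 ± 129 CPM in the unnamed blood subset led by Igfbp3 and Aqp1 to 394 ± 42.7 CPM in floor lymphatic-like cells. Hemoglobin genes ranked above Igfbp3 in that unnamed subset, but Hbb-bs was found in 1.59% of its 1072 cells, against 2.12% of tip-like cells. High endothelial-like cells, at 1522 ± 271 CPM (n = 5), lay in the middle of the blood range. Esam (ENSMUSG00000001946, chromosome 9, 37528078 to 37538319) was highest in Fabp4 capillary-like cells, at 1009 ± 145 CPM, and lowest among blood subsets in high endothelial-like cells, at 385 ± 79.4 CPM. High endothelial-like cells differed beyond the spread from the tip-like cells above them and from the Nts lymphatic-like cells below them, the latter at 125 ± 42.4 CPM. Floor lymphatic-like cells had 6.11 CPM of Esam.

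Jam2 (ENSMUSG00000053062, chromosome 16, 84774123 to 84825928) showed the steepest division between the lineages. It ranged from 458.5 ± 113 CPM in Fabp4 capillary-like and 401 ± 62.4 CPM in venous-like cells to 98.8 ± 28.3 CPM in tip-like cells, and no lymphatic subset exceeded 4.82 CPM. A Jam2 UMI was found in 0 of 387 Ptx3 lymphatic-like cells, at a median of 5313 UMIs, which allows up to 0.775% of such cells with a UMI. This limit covers counting error and not cells that express the gene at a level too low to give a UMI. F11r (ENSMUSG00000038235, chromosome 1, 171437535 to 171464603), from the same family, ran the other way, with 541 ± 34.5 CPM (n = 7) in Ptx3 lymphatic-like cells and its lowest levels in venous-like, at 194 ± 39.6 CPM, and high endothelial-like cells, at 167 ± 37.6 CPM. The correlation of Jam2 with F11r over the 14 subsets was -0.72, against 0.94 for Jam2 with Esam and 0.90 for Pecam1 with Esam.

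Alcam (ENSMUSG00000022636, chromosome 16, 52248996 to 52454074) was graded among lymphatic subsets. The unnamed subset had 264 ± 80.0 CPM (n = 6), floor 166 ± 74.7 CPM (n = 8), Marco 165 ± 55.1 CPM (n = 7), Ptx3 85.2 ± 19.1 CPM (n = 7), ceiling 49.6 ± 29.1 CPM (n = 8) and Nts 15.6 ± 8.48 CPM (n = 8). Every step but that between floor and Marco cells exceeded the spread. Blood subsets had 0.184 to 1.92 CPM. With cells thinned to 1500 UMIs in the same way, an Alcam UMI was found in 22.3% of floor, 11.9% of Ptx3 and 9.29% of ceiling cells, against 0.273% of high endothelial-like cells and 0 of 142 venous-like cells. The unthinned shares were 51.4%, 33.9%, 26.5%, 1.36% and 0.704%, so venous-like cells were at 0 only after thinning.

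Cd47 (ENSMUSG00000055447, chromosome 16, 49800533 to 49915010) was found in every subset. Ptx3 lymphatic-like cells, at 1027 ± 87.1 CPM (n = 7), and Marco cells, at 805 ± 133 CPM (n = 7), each exceeded the next subset beyond the spread, and high endothelial-like cells were lowest, at 284 ± 107 CPM (n = 5). The 7 Ptx3 pools lay between 898 and 1129 CPM and the 7 Marco pools between 601 and 965 CPM, so the ranges overlapped.

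**Figure D1:**
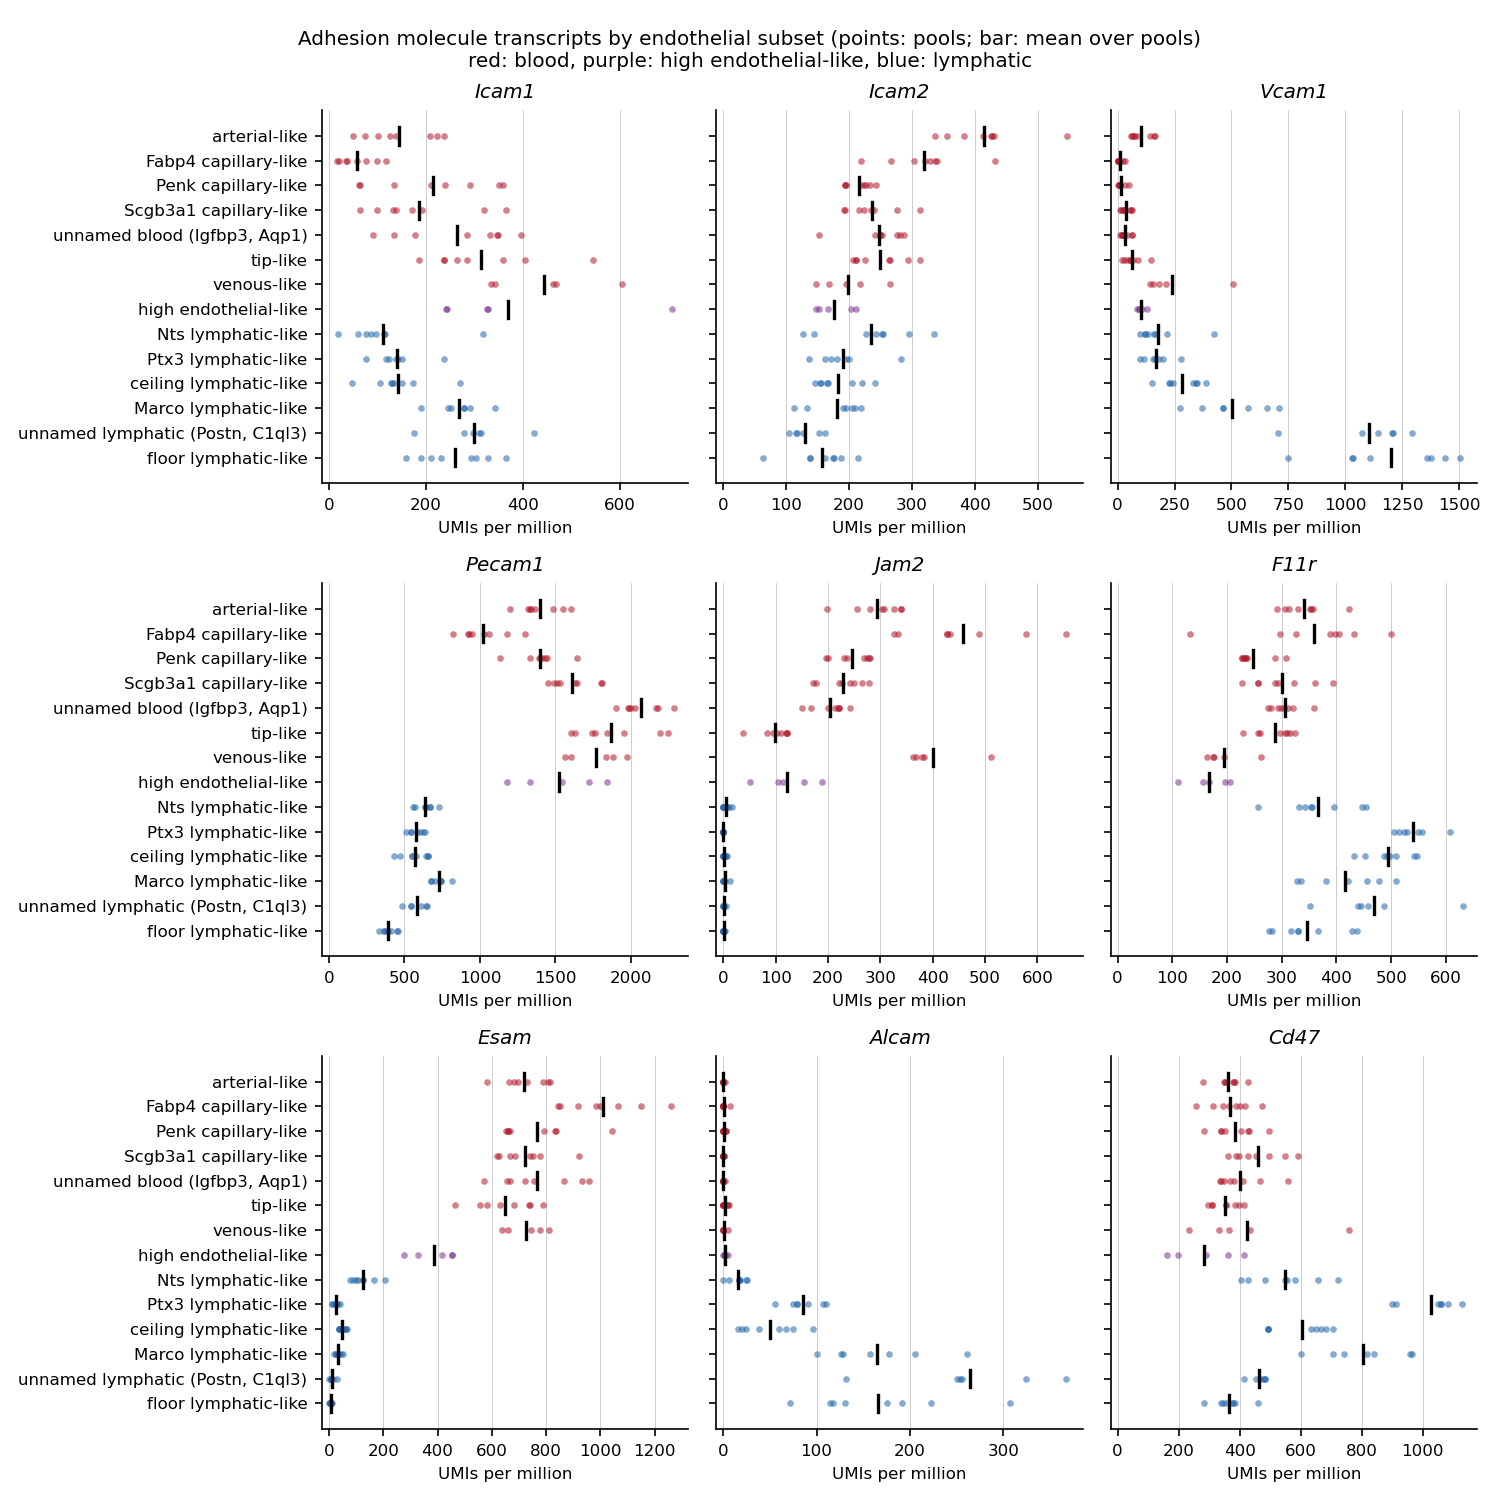
Level of each of the 9 members (CPM, horizontal axis from 0) in the 14 endothelial subsets (vertical axis), with points for pools, bars for means over pools, red for blood, purple for high endothelial-like and blue for lymphatic subsets. Jam2 and Esam stand high in red and near 0 in blue, Alcam the reverse, and Vcam1 is highest in floor cells, at 1199 CPM, and in the unnamed lymphatic subset, at 1104 CPM.

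Differences among subsets were tested over all genes at once, with the pool as a block. Among blood subsets, 7 of the 8 members tested passed (edgeR quasi-likelihood test with Benjamini-Hochberg adjustment), where 63.7% of 5176 genes did. The adjusted p was 1.87e-22 for Pecam1, 2.03e-20 for Icam1, 4.72e-20 for Vcam1, 2.85e-19 for Jam2 and 0.0626 for Cd47, which did not pass. Among lymphatic subsets all 8 members tested passed, where 68.2% of 6792 genes did, from 3.77e-24 for Alcam and 3.56e-23 for Vcam1 to 0.00149 for F11r. Alcam in blood subsets and Jam2 in lymphatic subsets were too low to be tested.

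The 3 genes most like each member were found by Pearson's r of mean log2(CPM + 1) over the 14 subsets, among 10164 genes with a mean of at least 5 CPM. For Vcam1 they were Hspa13 (0.957), Tbl1xr1 (0.951) and Shb (0.949), and for Icam1 Hif1a (0.894), Bace2 (0.884) and Tank (0.870). Icam2 was most like Odf3b (0.915), Rnasek (0.890) and Chmp2a (0.888). For Alcam they were Eml5 (0.989), Gng12 (0.987) and Slc38a4 (0.981), and for Cd47 Gdi2 (0.943), Pxn (0.929) and Twf1 (0.928). The junctional members had Sh3bgrl (0.964), Marc2 (0.964) and Vwa1 (0.951) beside Pecam1, Tmem255b, Adgrg1 and Abcb1a (each 0.986) beside Jam2, Palmd (0.978), Abracl (0.975) and Plk3 (0.973) beside Esam, and Eif4g2 (0.964), Dync1h1 (0.948) and Tsen34 (0.948) beside F11r. These coefficients describe 14 points that share their libraries.

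Lymphatic cells were then compared with the other blood endothelial cells, a class that holds the capillary, tip, arterial and venous subsets, as 8 sums each. Alcam and Vcam1, ligands of CD6 and VLA-4, were higher in lymphatic cells, and Jam2, Esam, Pecam1 and Icam2 were lower. In the lymphatic sums of library 1 Alcam stood at 140.4 and 96.6 CPM in WT (peripheral and mesenteric nodes) and at 195 and 74.3 CPM in Xbp1-KO, and in library 2 at 133 and 58.7 CPM and at 135 and 84.1 CPM. In other blood cells it lay between 0 and 2.57 CPM, so the classes did not overlap. The log2 fold change of Alcam was 6.37 ± 0.20 (SE; edgeR quasi-likelihood test, Benjamini-Hochberg adjusted p 4.08e-28). Vcam1 stood at 619, 580.2, 701 and 709.8 CPM and at 471, 458, 600.4 and 651 CPM in the same order, against 24.7 to 70.0 CPM in other blood cells, a difference of 3.40 ± 0.13 (adjusted p 3.83e-25). Each lymphatic sum lay above every other blood sum.

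Jam2 had 197 to 290.5 CPM in other blood sums and 0 to 4.76 CPM in lymphatic sums, 2 of which were at 0, with a log2 fold change of -7.14 ± 0.20 (adjusted p 1.06e-29). Esam had 643 to 880.3 against 32.2 to 75.1 CPM, a log2 difference of -4.39 ± 0.13 (adjusted p 1.18e-28). Pecam1 lay at 1423 to 1674 CPM in other blood and at 506 to 639.5 CPM in lymphatic sums, a difference of -1.60 ± 0.12 (adjusted p 5.6e-15). These 3 junctional genes were lower in lymphatic cells in 8 of 8 pools, without overlap. F11r, the fourth, was higher there by 0.39 ± 0.10 (adjusted p 0.00109), as was Cd47 by 0.44 ± 0.12 (adjusted p 0.00215). Icam2 was lower by -0.77 ± 0.10 (adjusted p 1.92e-08), and Icam1 did not pass, at -0.30 ± 0.14 (adjusted p 0.0697). In all, 8 of the 9 members passed, 4 in each direction, where 58.1% of 8967 genes passed. The median log2 fold change was -0.30 over the members and -0.00165 over all genes. Without library 1, F11r and Cd47 no longer passed (adjusted p 0.076 and 0.068) and Icam1 did (-0.58, adjusted p 0.017). Icam1 also passed at the finer clustering (-0.40, adjusted p 0.0156). DESeq2 called 8 of 9 members, for which the 58.1% of edgeR is no background. Its scaling placed the median of all genes at 0.16 here and at -0.18 in the comparison of high endothelial-like with other blood cells, against -0.06 in edgeR.

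High endothelial-like cells were next compared with the other blood endothelial cells. Vcam1 and Icam1, the ligands of VLA-4 and LFA-1, were higher in them, and the junctional genes Jam2, Esam and F11r were lower. In library 1 Icam1 stood at 724 and 242 CPM in WT (peripheral and mesenteric nodes) and at 243 and 329 CPM in Xbp1-KO, and in library 2 at 373 and 326 CPM and at 164 and 707 CPM. In other blood cells, in that order, it stood at 206, 140.5, 229 and 176 CPM and at 287, 106, 288 and 345 CPM. It was higher in 7 of 8 pools, the exception being the Xbp1-KO peripheral pool of library 2, whose high endothelial-like sum held 2 cells. The ranges overlapped, and the log2 fold change was 1.15 ± 0.16 (edgeR quasi-likelihood test, Benjamini-Hochberg adjusted p 1.61e-07). Vcam1 had 85.1 to 336 CPM against 24.7 to 70.0 CPM, without overlap, a difference of 1.41 ± 0.17 (adjusted p 4e-09). The 336 and 329 CPM came from sums of 9 and 2 cells, and the other 6 sums lay between 85.1 and 131 CPM.

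Jam2 differed by -0.70 ± 0.15 (adjusted p 0.000212), with 50.5 to 329 CPM in high endothelial-like and 197 to 290.5 CPM in other blood sums. The ranges overlapped and Jam2 was lower in 6 of 8 pools, the exceptions being the sums of 9 and 2 cells. Esam differed by -0.61 ± 0.13 (adjusted p 0.000131), and was lower in 7 of 8 pools, at 275 to 466 against 643 to 880.3 CPM. In the sum of 2 cells it stood at 904 CPM. F11r was lower in 8 of 8 pools, with overlapping ranges of 110.2 to 247 and 237 to 325 CPM. It differed by -0.31 ± 0.13 (adjusted p 0.046) and lost its call without library 1 (0.363), without library 2 (0.200) and in WT pools alone (0.273). Pecam1, at 0.26 ± 0.13 (adjusted p 0.0999), Icam2, at -0.25 ± 0.13 (0.121), Cd47, at -0.17 ± 0.15 (0.4) and Alcam, at 1.09 ± 0.75 (0.279), did not pass. In all, 5 of 9 members passed, where 37.5% of 8967 genes did, with medians of -0.17 over the members and -0.06 over all genes. DESeq2 called 7 of 9, adding Pecam1 (adjusted p 0.000684) and Icam2 (0.00309). The 37.5% is the share in edgeR and is no background for this count.

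Since high endothelial cells are themselves venular, the high endothelial-like subset was also set against the venous-like subset, a comparison added after the data had been seen. Neither Icam1 nor Vcam1 passed here, while Jam2 and Esam were again lower. Icam1 differed by 0.06 ± 0.20 (adjusted p 0.875), and leaving out library 2 gave -0.25 and library 1 0.47. Vcam1 was at 85.1 to 131 CPM in 5 high endothelial-like pools and at 144 to 506 CPM in 5 venous-like pools. These ranges did not overlap, and the log2 difference of -0.58 ± 0.25 did not pass (edgeR adjusted p 0.0808), though it did under the other hashtag rule (-0.89, adjusted p 0.00133). Jam2 lay at 50.5 to 189 CPM against 362 to 512 CPM, a difference of -1.24 ± 0.17 (adjusted p 6.28e-09). Esam lay at 275 to 454 CPM against 636 to 812 CPM, a difference of -0.51 ± 0.11 (adjusted p 0.000136). Its call was lost without library 1 (adjusted p 0.101), in WT pools alone (0.177) and without the filter on low counts (0.0731). Of the 8 members tested, 2 were lower and none was higher, where 27.4% of 5176 genes passed.

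**Figure D2:**
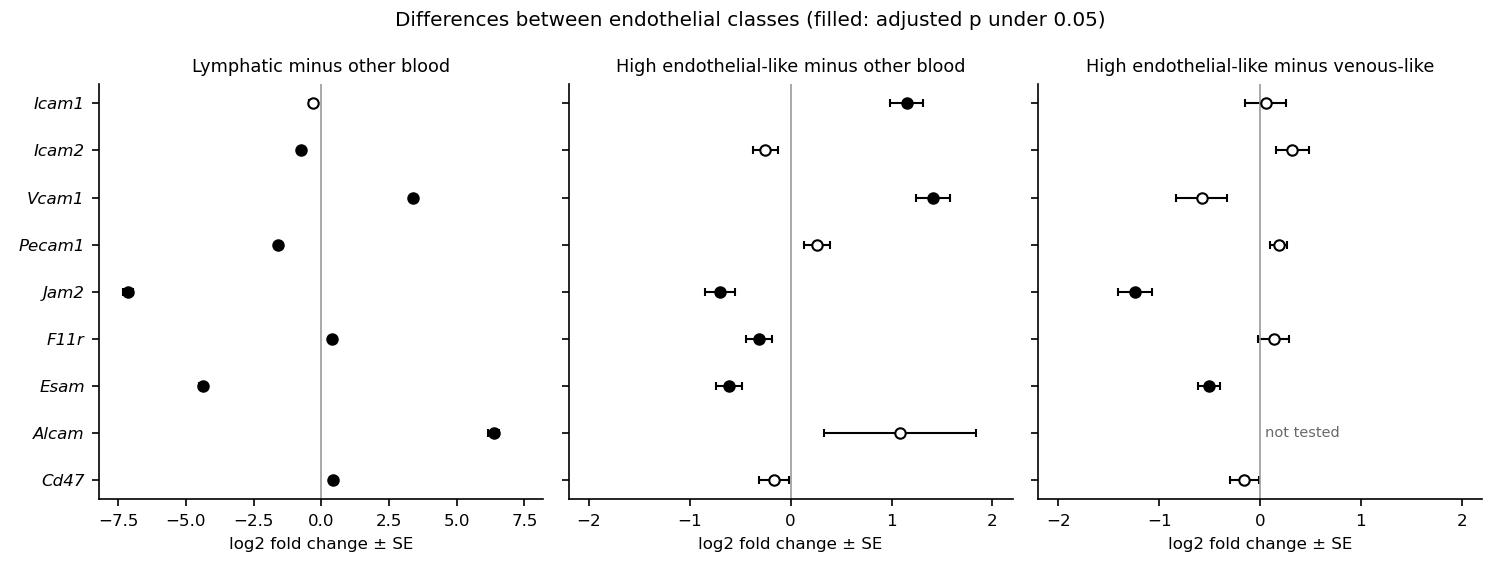
Log2 fold change with its standard error (horizontal axis) of each member for lymphatic against other blood cells, high endothelial-like against other blood cells and high endothelial-like against venous-like cells, filled where the adjusted p was under 0.05. Jam2 and Esam lie left of 0 in all 3 panels, and Vcam1 and Icam1 lie right of 0 in the second panel, at 1.41 and 1.15, but not both in the third.

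Genes that work with the members were read from 5 lists. Over all genes, 16.4% were higher and 21.1% lower in high endothelial-like against other blood cells, and 29% were higher and 29% lower in lymphatic cells. Junctional partners, the other molecules of endothelial contacts, had 1 higher and 10 lower of 16 tested in high endothelial-like against other blood cells, among them Cldn5 at -2.97, Ptprb at -2.42, Jup at -3.72 and Nectin2 at 1.22. In lymphatic cells 4 were higher and 11 lower, with Mcam at -3.65, Bcam at -2.55, Nectin2 at 2.04 and Cldn5 at 1.72. Cytoskeletal anchors and tetraspanins, which hold ICAM1 and VCAM1 in the docking structure, had 2 higher and 4 lower of 18 in high endothelial-like cells (Cd81 -1.37, Cav1 -1.18, Rdx -1.07, Actn4 -0.89) and 5 higher and 8 lower in lymphatic cells (Cav1 -1.62, Cd81 -1.47, Msn -1.19, Arhgef26 1.08). Genes inducible by NF-kB, as Icam1 and Vcam1 are, had 8 higher and 5 lower of 17 in high endothelial-like cells, led by Cx3cl1 at -7.27, Tnfaip2 at -2.80, Ccl2 at -2.61 and Sele at 2.13. In lymphatic cells 11 were higher and 4 lower, with Csf1 at 3.74, Cxcl10 at 3.21, Ccl2 at 3.12 and Cx3cl1 at -3.98. Ligands and counter-receptors had 1 higher and 2 lower of 6 in high endothelial-like cells (Sirpa 2.97, Cd38 -1.25, Thbs1 -1.04) and 3 higher and 1 lower in lymphatic cells (Sirpa 4.85, Itgav 2.43, Itgb3 1.02, Cd38 -1.06). Sirpa encodes the receptor of CD47. Genes that respond to tissue dissociation had 1 higher and 13 lower of 14 in high endothelial-like and 0 higher and 13 lower in lymphatic cells, led by Nr4a1 at -3.83 and -3.24. Their part in the differences of the members was not tested.

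The question of the genotype comparison was whether these genes differ in endothelium of Xbp1-KO mice, Xbp1 being a regulator of the unfolded protein response and of secretory cells. In high endothelial-like cells none of the 8 members tested passed at an adjusted or unadjusted p under 0.05, and DESeq2 called none either, where 0.0741% of 5401 genes passed in edgeR. The log2 fold changes, Xbp1-KO minus WT, ran from -0.34 ± 0.40 for Jam2 to 0.09 ± 0.38 for Icam2. The signs of both turned on which library was left out. With simulated counts, 5% of genes changed 2-fold and 54% of those changed 4-fold were recovered in this class. Its sums held 2 to 115 cells.

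The Icam1 values lay on opposite sides in the 2 tissues there. In peripheral nodes those of Xbp1-KO were the lower, at 243 against 724 CPM in library 1 and 164 against 373 CPM in library 2. In mesenteric nodes they were the higher, at 329 against 242 CPM and 707 against 326 CPM. The NF-kB-inducible genes summed to 1822 and 1069 CPM in Xbp1-KO against 5170 and 2462 CPM in WT peripheral nodes, and to 1827 and 4455 against 1618 and 1655 CPM in mesenteric nodes. The dissociation genes summed to 6596 and 2548 against 9694 and 8186 CPM in peripheral nodes, and to 9280 and 20964 against 7764 and 11227 CPM in mesenteric nodes. Both sums thus lay on the same sides as Icam1 in both libraries, and their part in its values was not tested. The difference between the Icam1 effects of the tissues was -1.86 ± 0.75 and did not pass (edgeR adjusted p 1.0, unadjusted 0.0132), as 0% of genes did in this interaction. The peripheral sums held 9 and 26 cells in library 1 and 5 and 2 in library 2.

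In lymphatic cells Icam1 had the largest genotype difference of the members. It stood at 207 and 174 CPM in WT peripheral and mesenteric sums of library 1 and at 152 and 101 CPM in those of library 2. In Xbp1-KO it stood at 228 and 254 CPM and at 221 and 269.6 CPM. Xbp1-KO was higher in 4 of 4 pairs and the genotypes did not overlap. The share of all genes without overlap between genotypes was not counted. The fold change of 0.55 ± 0.15 on the log2 scale did not pass without a block (edgeR quasi-likelihood test, Benjamini-Hochberg adjusted p 0.53), where 0% of 10685 genes passed, 637 had an unadjusted p under 0.05 and DESeq2 called 3. Of the 8 members none passed, 3 had an unadjusted p under 0.05 and DESeq2 called none. With the library as a block Icam1 passed at 0.57 ± 0.12 (adjusted p 0.0245), the sole member among 8, where 0.786% of genes passed. In mesenteric nodes alone the blocked value was 0.85 ± 0.18 (adjusted p 0.0167), again 1 of 8 members, where 1.04% of genes passed, and in peripheral nodes 0.29 ± 0.16 (adjusted p 1.0). The difference between the tissues did not pass with the block (-0.55 ± 0.23, adjusted p 0.886), where 0.131% of genes passed, or without it (-0.53 ± 0.31, adjusted p 1.0), where 0% did. Without the unnamed lymphatic subset, an alternative chosen after seeing the data, the blocked value was 0.57 (adjusted p 0.027), where 0.384% of genes passed. The ratio of Xbp1-KO to WT was 1.10 and 1.46 in peripheral and mesenteric nodes of library 1 and 1.45 and 2.67 in those of library 2, the last being the pair in which Xbp1 itself differed least. In that pair Nts cells, low in Icam1 at 111 CPM, numbered 27 of 65 WT and 25 of 222 Xbp1-KO lymphatic cells. Floor cells, at 260 CPM, numbered 17 and 82. In mesenteric nodes of library 1 Nts cells numbered 108 of 474 and 33 of 171, and floor cells 154 and 54. The part of these numbers in the Icam1 values was not tested. The size of the Icam1 difference turned on the library, at 0.90 without library 1 and 0.26 without library 2. These 2 fits hold 1 pool per tissue and genotype, so no pool has a replicate. They assume the same genotype effect in both tissues, and within each library genotype and Xist status cannot be told apart.

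Within lymphatic subsets Icam1 was higher in Xbp1-KO in 15 of 20 pairs, including 4 of 4 in Nts and 3 of 3 in Marco cells, and in 2 of 4 ceiling pairs. Pairs of different subsets come from the same pools and are not independent. Vcam1 values were the higher in Xbp1-KO in 4 of 4 lymphatic pairs, with overlap between the genotypes, and the difference of 0.29 ± 0.13 did not pass (edgeR adjusted p 0.83). Icam2 values were the lower in 4 of 4 pairs without overlap, at 154 to 173 CPM in Xbp1-KO and 178 to 216 CPM in WT, and the difference of -0.29 ± 0.11 did not pass either (adjusted p 0.783). Within lymphatic subsets Icam2 was higher in Xbp1-KO in 7 of 20 pairs. Nts cells, whose numbers are given above, were the lymphatic subset highest in Icam2, at 235 CPM, and their part in this difference was not tested. The other members tested in lymphatic cells lay between -0.30 ± 0.18 for Esam and 0.07 ± 0.15 for Alcam.

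Dissociation and NF-kB-inducible genes were read beside Icam1 in mesenteric lymphatic cells. The 14 dissociation genes summed to 20161 and 27434 CPM in Xbp1-KO against 14034 and 15647 CPM in WT mesenteric nodes, and to 23542 and 23945 against 23415 and 25157 CPM in peripheral nodes. In mesenteric nodes 8 of these 14 rose with the library as a block, including Atf3 by 1.41, Hspa1a by 1.25 and Egr1 by 1.04, where 0.627% of all genes rose. Of 17 NF-kB-inducible genes 3 rose, namely Nfkbiz by 0.997, Cxcl10 by 0.69 and Tnfaip3 by 0.63. The 10 mural or fibroblastic markers summed to 209 and 269.6 CPM in Xbp1-KO against 146 and 143 CPM in WT mesenteric nodes, and to 127 and 106 against 134 and 93.9 CPM in peripheral nodes. Their part in the difference of Icam1 was not tested.

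In other blood cells Icam1 was likewise higher in Xbp1-KO in 4 of 4 pairs, but the genotypes overlapped. Its change was 0.60 ± 0.21 (edgeR adjusted p 1.0), with 0.08 ± 0.30 in peripheral and 1.12 ± 0.30 in mesenteric nodes, where the adjusted p was 0.99, and 0.0778 with the block. The mesenteric ratio was 1.25 in library 1 and 3.25 in library 2. Within subsets Xbp1-KO was higher in 3 of 4 Penk, 3 of 4 tip-like and 2 of 2 venous-like pairs. In Scgb3a1, arterial-like and Fabp4 cells it was higher in 2 of 4 pairs each. In mesenteric nodes of library 2 arterial-like cells numbered 79 of 230 in WT and 83 of 474 in Xbp1-KO, and Scgb3a1 cells 73 and 235. The part of these numbers in the Icam1 values was not tested. None of the 8 members passed, 1 had an unadjusted p under 0.05 and DESeq2 called none, where 0% of 9874 genes passed and 238 had an unadjusted p under 0.05. The difference of the Icam1 effect between tissues was -1.04 ± 0.42 (adjusted p 1.0), and no gene passed that test in edgeR, or 0%, with 192 at an unadjusted p under 0.05 and none in DESeq2. The dissociation genes summed to 30947 and 55761 CPM in Xbp1-KO and to 21927 and 28476 CPM in WT mesenteric cells of this class, and in peripheral nodes to 25402 and 37300 against 29060 and 32651 CPM. The NF-kB-inducible genes summed to 2061 and 3023 against 1797 and 1615 CPM in mesenteric and to 3115 and 3379 against 3438 and 3057 CPM in peripheral nodes. The part of either in the Icam1 values was not tested.

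**Figure D3:**
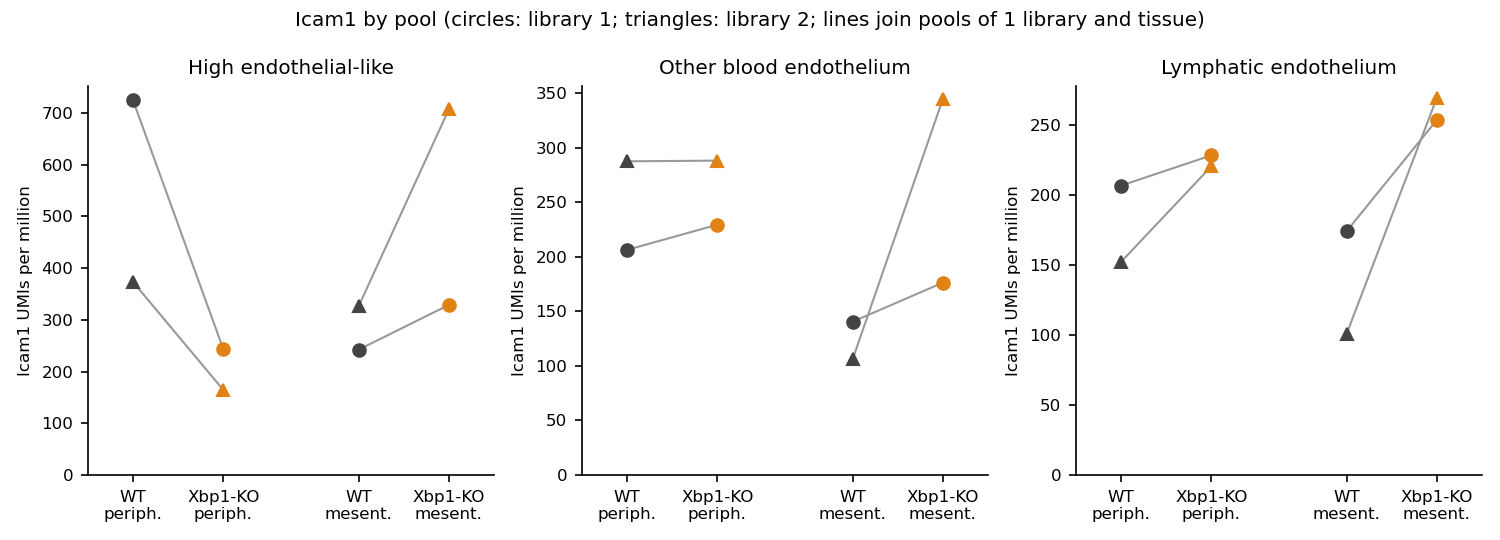
Icam1 level (CPM, vertical axis from 0) in each pool of high endothelial-like, other blood and lymphatic cells, grey for WT and orange for Xbp1-KO, circles for library 1 and triangles for library 2, with lines joining the pools of 1 library and tissue. The lymphatic Xbp1-KO points lie at 221 to 269.6 CPM, all above the WT points at 101 to 207 CPM, while the other 2 classes overlap.

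Between tissues, Alcam was the member that differed in lymphatic cells. Its peripheral sums were at 140.4 and 195 CPM in library 1 and 133 and 135 CPM in library 2 (WT and Xbp1-KO), and its mesenteric sums at 96.6 and 74.3 CPM and at 58.7 and 84.1 CPM. The tissues did not overlap, and peripheral cells were higher in 4 of 4 pairs. The log2 difference was 0.79 ± 0.15 (edgeR quasi-likelihood test, Benjamini-Hochberg adjusted p 0.00791), with 1 of 8 members called where 4.74% of genes passed. With the library as a block it was still 1 of 8 members, where 12.7% of genes passed. The medians were 0.04 over the members and 0.01 over all genes. The unnamed lymphatic subset, highest in Alcam, held 205 and 360 cells of the peripheral pools of library 1 and 40 and 88 of library 2, against 13, 4, 0 and 10 mesenteric cells. Without it the difference in Alcam was 0.36 and did not pass (adjusted p 0.232, or 0.0584 with the block). Over all alternatives 3 ended the call of Alcam, including these 2.

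Within subsets Alcam was still higher in peripheral nodes in 17 of 20 pairs, which come from the same pools and are not independent. Floor cells had 176 to 307 CPM in peripheral and 71.1 to 131 CPM in mesenteric nodes, and ceiling cells 59.5 to 96.0 and 16.1 to 38.7 CPM. These 2 sets of ranges were separate, and those of the other 4 lymphatic subsets overlapped. Marco cells had 129 to 261 and 100.1 to 158 CPM, Ptx3 cells 78.8 to 110.2 and 55.5 to 90.6 CPM, the unnamed subset 251 to 367 and 132 to 254 CPM, and Nts cells 16.4 to 24.1 and 0 to 25.2 CPM.

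Vcam1 did not pass between tissues over all lymphatic cells, at -0.08 ± 0.13 (edgeR adjusted p 0.801). Without the unnamed subset, which is also high in Vcam1, it was lower in peripheral nodes by -0.59 ± 0.13 (adjusted p 0.013), the 1 member of 8 that passed where 7.94% of genes did. With the block added, Vcam1 (-0.59 ± 0.10, adjusted p 0.000124) and Cd47 (0.37 ± 0.09, adjusted p 0.00612) passed, 2 of 8 where 15.7% did. Both fits were chosen after seeing the data. The subsets ran in opposite directions. Marco cells had 273 to 463 CPM of Vcam1 in peripheral and 571 to 707 CPM in mesenteric nodes, while floor cells were higher in peripheral nodes in 4 of 4 pairs, at 1106 to 1502 against 750 to 1375 CPM. Floor cells, high in Vcam1, numbered 154 of 474, 54 of 171, 17 of 65 and 82 of 222 lymphatic cells in mesenteric pools (WT and Xbp1-KO of library 1, then of library 2), and 106 of 929, 101 of 1298, 17 of 242 and 22 of 327 in peripheral pools. The part of this difference in the Vcam1 values was not tested.

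Cd47 had 637 to 718 CPM in peripheral and 489 to 580 CPM in mesenteric lymphatic sums, without overlap and in 4 of 4 pairs, with a log2 difference of 0.25 ± 0.11 that did not pass over all lymphatic cells (edgeR adjusted p 0.241). Its ranges were separate in Marco cells, at 818 to 965 against 601 to 743 CPM, and in Ptx3 cells, at 1058 to 1129 against 898 to 1048 CPM. In Nts cells it was higher in peripheral nodes in 4 of 4 pairs, and the ranges of 549.7 to 723 and 403 to 581 CPM overlapped. F11r and Pecam1 likewise had separate lymphatic ranges, peripheral cells being higher in 4 of 4 pairs, with differences of 0.21 ± 0.11 and 0.11 ± 0.11 that did not pass (adjusted p 0.326 and 0.648). The share of all genes with separate ranges between tissues was not counted. Within lymphatic subsets, whose pairs share pools, F11r was higher in peripheral nodes in 14 and Pecam1 in 16 of 20 pairs. Floor cells, more frequent in mesenteric pools, were lowest in Pecam1, at 394 CPM, and their part was not tested. Among the listed genes, 6 of 14 dissociation genes were higher and 1 lower in peripheral lymphatic cells, and Tnfaip2, at -0.88, and Cxcl10, at -0.83, were the 2 of 17 NF-kB-inducible genes called. Vcl (0.57), Ptprb (0.47) and Cd38 (-1.25) were the only ones called in the other 3 lists. Over all genes 1.91% were higher and 2.84% lower.

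**Figure D4:**
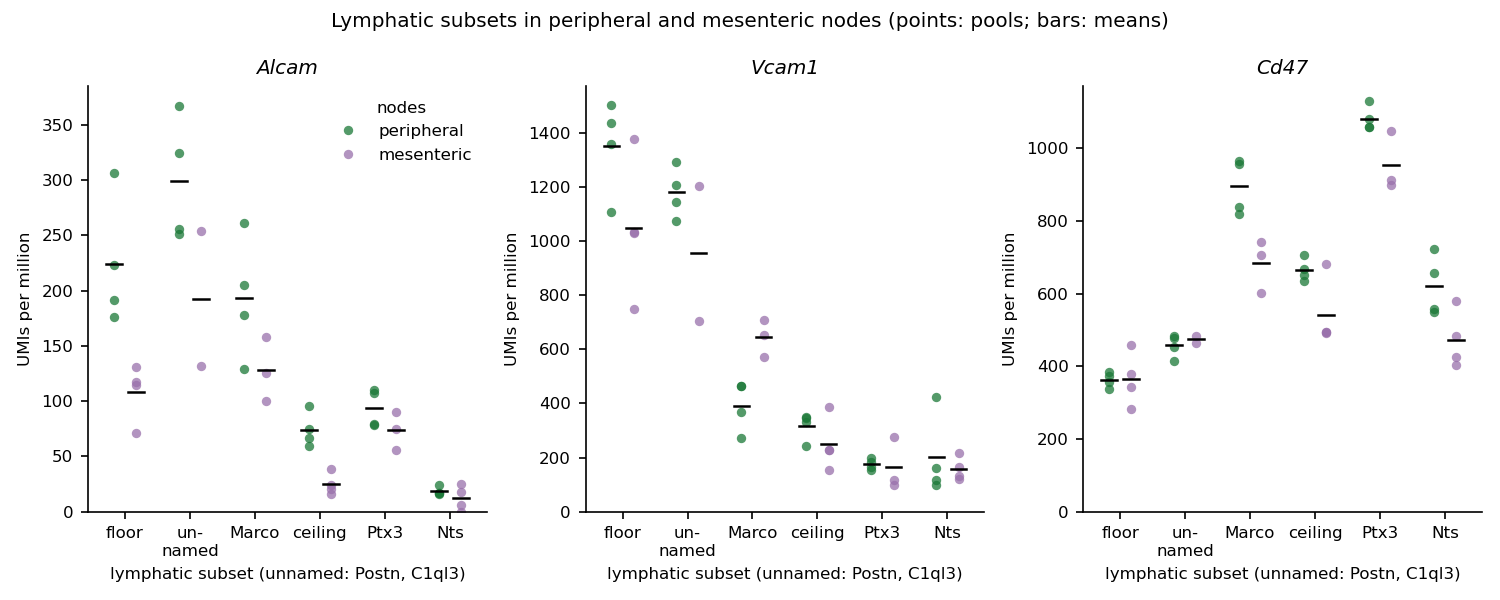
Alcam, Vcam1 and Cd47 levels (CPM, vertical axes from 0) in the 6 lymphatic subsets, with green points for peripheral and purple points for mesenteric pools. Green lies above purple for Alcam in floor and ceiling cells and for Cd47 in Marco and Ptx3 cells, and below it for Vcam1 in Marco cells, at 273 to 463 against 571 to 707 CPM.

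In blood endothelium no member passed between tissues. Among high endothelial-like cells 0 of 8 members passed in edgeR, 0 had an unadjusted p under 0.05 and DESeq2 called 0, where 0.296% of genes passed and the median of all genes was -0.23. The log2 differences, peripheral minus mesenteric, ran from -0.70 ± 0.39 for Cd47 to 0.71 ± 0.36 for Vcam1. Vcam1 stood at 336 and 329 CPM in peripheral sums of 9 and 2 cells and at 96.4 and 93.2 CPM in those of 26 and 5. Its difference changed sign with doublets kept. In other blood cells 0 of 8 passed in edgeR, 1 had an unadjusted p under 0.05 and DESeq2 called 0, where 1.3% of genes passed. Icam1 was at 0.46 ± 0.21 (adjusted p 0.567) and Vcam1 at -0.37 ± 0.25 (0.837). The tissues differed in subsets: in WT of library 1 Penk cells numbered 343 of 665 peripheral and 123 of 850 mesenteric cells, and Scgb3a1 cells 58 and 279. Over the 8 blood subsets, whose pairs share pools, Icam1 was higher in peripheral nodes in 19 of 26 pairs, including 4 of 4 Penk and 4 of 4 Scgb3a1 pairs. Icam2 was higher in 17 and Jam2 in 11 of 26. The part of the subsets was not tested. Vcam1 turned on the library, at -1.07 without library 1 and at -0.01 without library 2. These fits hold 1 pool per tissue and genotype and assume the same tissue effect in both genotypes. Of 16 NF-kB-inducible genes tested in other blood cells, Cxcl10 (1.55), Cxcl1 (1.15) and Nfkbia (0.75) were higher in peripheral nodes, and Thbs1, a ligand of CD47, was lower, at -1.93, where 0.719% of all genes were higher and 0.577% lower.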

How the data were processed

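Single-cell RNA counts of endothelial cells from WT and Xbp1-KO lymph nodes were deposited as 2 matrices. The authors deposited raw counts of UMIs per gene and barcode, with hashtag counts beside them, and the lists of barcodes hold called cells. Per the file headers the tool was Cell Ranger 6.0.1, and per the submitters' processing notes 6.1, with build mm10. The labels name kit version 2 in the protocol and version 3 chemistry in the design, and describe enzymatic digestion of peripheral nodes, CD45 bead depletion and sorting. No separate digestion is described for mesenteric nodes. The 9 members and the gene lists were chosen with earlier results of these data known.

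Hashtags were called per library with HTODemux (Seurat 5.3.0, R 4.3.3, quantile 0.99). Library 1 held 7709 barcodes, 33024170 gene UMIs and 6786 single-tag barcodes, library 2 2903, 14744778 and 2690. Cells needed at least 500 genes and no more than 10% mitochondrial UMIs. Scrublet then removed 65 and 4 cells, and it marked 25.5% and 4.62% of multi-tag barcodes, so doublets that share a tag may remain. Clustering used scanpy 1.11.5, anndata 0.12.19 and igraph 0.11.9 on 1966 of 2000 variable genes (members and listed genes removed), 30 components, 15 neighbours and Leiden resolution 1. Subsets were named from marker sets, with Prox1 in at least 25% of cells for lymphatic. A blood cluster of 1072 cells stayed unnamed and outside the other blood class, and 4 clusters of stromal, blood and dividing cells were left out.

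Since cells are not replicates, the raw counts of each class were added up within each pool. The sums held 12167 to 1034129 UMIs in high endothelial-like, 647061 to 2348733 in other blood and 425826 to 6562491 in lymphatic cells. Tests were edgeR 4.0.16 quasi-likelihood fits (limma 3.58.1, TMM, filterByExpr, Benjamini-Hochberg over all genes, threshold 0.05). Genotype and tissue fits had no block, and class and subset fits had the pool as a block. The libraries pair the pools, as pools of 1 library shared a droplet run. Over the 6 pairs of groups, the deviations of same-library pools correlated across genes at -0.00143 to 0.18 in high endothelial-like, 0.17 to 0.39 in other blood and 0.05 to 0.22 in lymphatic cells. Scripts were tested on simulated data. The genes named were the members, Xbp1, the 3 genes most like each member, and up to 4 called genes of each list with the largest changes. Alternatives were DESeq2 1.42.0, no filter on low counts, each library left out, the library block, other hashtag, doublet, clustering and cell-number rules, thinned sums and WT pools only. Coordinates are from GENCODE M21 on GRCm38.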

Additional observations from a re-analysis of the deposited data

Results flagged for a closer look

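In 110 groups of pools (a member in a subset, with a mean of at least 10 CPM), 10 held a pool far from the others; by chance about 1 group in 20 does. Icam1 reached 706.9 CPM in high endothelial-like cells of the library 2 Xbp1-KO mesenteric pool, against 242 to 329 CPM in the other 4 pools, and 318 CPM in Nts lymphatic-like cells of the library 2 Xbp1-KO peripheral pool, against 19.2 to 116 CPM. Icam2 stood apart in arterial-like cells of the library 1 WT peripheral pool (547 CPM, others 336 to 431), in Ptx3 lymphatic-like cells of its WT mesenteric pool (283 CPM, others 136 to 199) and, at the low end, in the unnamed blood subset of the library 2 WT mesenteric pool (152 CPM, others 242 to 286). Vcam1 was high in venous-like cells of the library 1 Xbp1-KO peripheral pool (505.8 CPM, others 144 to 212) and in Nts cells of the library 2 WT peripheral pool (422 CPM, others 98.5 to 217). It was low in the unnamed lymphatic subset of the library 2 Xbp1-KO mesenteric pool, which held 10 cells (705 CPM, others 1075 to 1291). Jam2 was high in venous-like cells of the library 2 WT mesenteric pool (512 CPM, others 362 to 383) and low in tip-like cells of the library 1 Xbp1-KO mesenteric pool (36.9 CPM, others 84.3 to 121).

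Some differences between Xbp1-KO and WT in mean CPM had opposite signs in the 2 tissues, with both libraries on the same side. Icam1 in high endothelial-like cells was at -344.6 in peripheral and 233.6 in mesenteric nodes, a difference of -578.1, and the interaction in edgeR was -1.86 ± 0.75 (adjusted p 1.0). Icam2 in other blood cells was at 9.84 and -35.7, a difference of 45.5 (interaction 0.19 ± 0.28, adjusted p 1.0). Cd47 in lymphatic cells was at -45.4 and 30.2, a difference of -75.6 (interaction -0.18 ± 0.22, edgeR adjusted p 1.0).

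Other differences had opposite signs in the 2 libraries, with both tissues on the same side, and were not tested. In high endothelial-like cells, whose library 2 Xbp1-KO peripheral sum held 2 cells, the KO minus WT difference in library 1 less that in library 2 was -116.6 CPM for Icam2, -253.8 for Vcam1, -1039 for Pecam1, -270.8 for Jam2, -63.4 for F11r, -303.4 for Esam and -112.5 for Cd47. In mesenteric sums alone, in the same order, it was -95.0, -32.4, -689.2, -123.9, -77.6, -160.0 and -144.6 CPM. For Pecam1 it was 294.3 CPM in other blood and 70.1 CPM in lymphatic cells. The libraries also differed in which genotype carried Xist; its part in these differences was not tested.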

How the results depend on the processing

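Of 622 values of members under alternatives, 530 kept their direction and side of the threshold, 60 changed sign, 21 gained and 11 lost a call; every change of sign was of a value that had not passed.

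The small high endothelial-like sums limit the precision. Genes called (edgeR) moved as follows from 4 (high endothelial-like genotype), 16 (its tissue), 0 and 128 (other blood genotype, tissue), 0 and 507 (lymphatic genotype, tissue). DESeq2 gave 0 and 6 in high endothelial-like cells, 3 for lymphatic genotype and 2 for lymphatic interaction. With doublets kept the high endothelial-like genotype count was 0, with the hashtag ratio rule 1, and its interaction count then 1. Without a filter on low counts the counts were 25, 339 and 7 (other blood genotype, tissue, interaction) and 72, 891 and 25 (lymphatic). With the replicate block (library) they were 2 for the high endothelial-like interaction, 9, 465 and 2 in other blood and 84, 1357 and 14 in lymphatic cells; for genotype and tissue effects averaged over the other factor the library block changed no call of a member over a whole class other than Icam1 by genotype in lymphatic cells. Within 1 tissue or genotype of these cells it added Icam1 in mesenteric nodes and Alcam between tissues in WT (adjusted p 0.238 without and 0.029 with the block). Thinned sums gave 0 and 1 in high endothelial-like cells, 81 for other blood tissue and 176 for lymphatic tissue. Without the unnamed lymphatic subset the lymphatic tissue count was 827, and with the block 1636 and 40 for genotype. WT pools alone gave 1985 calls against 3362 for high endothelial-like and 3416 against 5206 for lymphatic against other blood, and 641 against 1417 for high endothelial-like against venous-like cells. Leaving out library 1 or 2 gave 8 and 26 (high endothelial-like genotype), 4 and 13 (its tissue), 59 and 15, 189 and 198 (other blood), 32 and 41, 218 and 1037 (lymphatic), 1891 and 2579, 3272 and 4931, 572 and 1054 (the class comparisons in the order above) and 2195 and 4544 (lymphatic subsets). The causes were not tested.

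Values of members that changed sign are log2 differences. In high endothelial-like cells by genotype they were 0.19 (Icam1), -0.0017 (Icam2) and -0.080 (Pecam1) with doublets kept, 0.00914 (Icam1), -0.018 (Pecam1) and 0.073 (Esam) under the ratio rule, 0.010 (Esam) and 0.042 (Cd47) unfiltered, 0.030 (Cd47) with the block and 0.34 (Esam) thinned. By tissue there they were 0.042 (Icam1), 0.00245 (Pecam1), 0.053 (F11r) and 0.10 (Esam) in DESeq2, 0.16 (Icam1), -0.14 (Vcam1), 0.018 (Pecam1), 0.00901 (Jam2), 0.16 (F11r) and 0.15 (Esam) with doublets kept, 0.12 (Icam1), 0.12 (Jam2), 0.099 (F11r) and 0.015 (Esam) under the ratio rule, 0.00849 (Icam1) with the block, and 0.18 (Pecam1) and 1.17 (Esam) thinned. In other blood cells they were 0.025 and 0.057 (Icam2, genotype, doublets kept and ratio rule), 0.00383 (Cd47, genotype, ratio rule), -0.035 (Icam2, tissue, doublets kept) and -0.018 (Pecam1, tissue, thinned). In lymphatic cells they were 0.054 (Cd47, genotype) and 0.019 (Icam1, tissue) thinned and -0.000983 (Pecam1, genotype) without the unnamed subset. Against venous-like cells Icam1 was -0.21 and F11r -0.078 in WT pools and Icam1 -0.048 with at least 20 cells per sum; Alcam was -0.47 against other blood cells in WT pools.

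Leaving out a library changed the sign of these, given without library 1 and without library 2. High endothelial-like genotype: Icam1 -0.029 and 0.10, Icam2 0.15 and -0.037, Vcam1 0.25 and -0.26, Pecam1 -0.077 and 0.17, Jam2 0.58 and -0.60, Esam -0.12 and 0.031. High endothelial-like tissue: Icam1 -0.84 and 0.48, Icam2 -0.65 and 0.041, F11r 0.22 and -0.37, Esam 0.21 and -0.32. Other blood genotype: Icam2 -0.12 and 0.028, Pecam1 -0.063 and 0.15, Jam2 -0.00689 and 0.17, Esam -0.073 and 0.047, Cd47 0.011 and -0.088. Other blood tissue: Pecam1 -0.053 and 0.060, Jam2 0.00478 and -0.28, Esam 0.00277 and -0.018. Lymphatic cells: Pecam1 by genotype -0.066 and 0.076, Icam1 by tissue 0.00154 and -0.013. Against venous-like cells: Icam1 0.47 and -0.25.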

Other observations

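Members were also counted in the 122 mural or fibroblastic-like cells, led by Dcn, Acta2 and Col3a1, which had passed the endothelial sort and were left out of every class. Over 5 pools their level was 392 ± 91.0 CPM for Cd47, 326 ± 97.9 CPM for Esam and 253 ± 199 CPM for Vcam1. Pecam1, a pan-endothelial gene, was at 363 ± 246 CPM, Icam1 at 75.8 ± 46.6 CPM, Icam2 at 64.6 ± 42.6 CPM, Jam2 at 62.4 ± 44.2 CPM, F11r at 88.0 ± 56.4 CPM and Alcam at 2.76 ± 6.16 CPM. With 5 shallower cells left out and the others thinned to 1500 UMIs, 26.5% of them carried a Pecam1 UMI against 88.3% of high endothelial-like cells. For Cd47 the shares were 39.3% and 32.2%, and for Vcam1 21.4% and 12.3%. Unthinned, they were 36.1% and 99.2%, 60.7% and 82.6%, and 30.3% and 46.6%, at medians of 3918 and 8618 UMIs.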
